A study of Arabidopsis thaliana with 30 samples.

Results

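The triple mutant pif457, which lacks functional PIF4, PIF5 and PIF7, was compared with wild-type Col-0 in whole seedlings of Arabidopsis thaliana kept at 21 °C throughout. The comparison used 3 libraries of each genotype, 6 of the 30 in the series, and covered the 21780 of 25300 genes that reached at least 1 CPM (CPM is the read count of a gene scaled to a common total for each library) in at least 3 of the 30 libraries. Both genotypes are in the Col-0 background, and the alleles combined in pif457 are not given in the sources used here. Seeds were stratified for 5 d at 4 °C, and seedlings were grown without sucrose in red light of 50 µmol and harvested at 96 h, when 4 d old. The 6 libraries held 19.6 to 21.5 M counted reads, so that 3 reads were worth 0.139 to 0.153 CPM. The other groups of the series are hyl1-2, dcl1-24/hyl1-2 and MIM156, each at 21 and 27 °C, and the same pair of genotypes at 27 °C.

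PIFs are basic helix-loop-helix transcription factors that bind the phytochrome photoreceptors. Red light activates phytochrome B, which promotes the degradation of PIFs or inhibits them, and PIFs in turn promote elongation of the hypocotyl, largely through auxin synthesis and response. They bind the G-box, CACGTG, and the related letters CACATG or CATGTG in promoters. The comparison asks what the loss of PIF4, PIF5 and PIF7 changed in red-light-grown seedlings before any warmth was given.

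The G-box letters were counted upstream of the genes that rose or fell, as defined with the counts further on. RefSeq promoter windows of TAIR10.1 were used, from 250 bases before to 50 bases after each annotated gene start. The letters CACGTG (the same on both strands) stood in 41 of 407 nuclear genes that fell (10%). They stood in 78 of 917 that rose (8.51%) and in 1807 of all 21616 tested nuclear genes (8.36%). The letters CACATG or CATGTG, which are the same motif read on either strand, stood in 11.3%, 11.9% and 12.9% of these sets. Examples with a single G-box before the start are printed, 5′ to 3′ on the strand of the gene, with the G-box in capitals, to show the site in the disrupted gene PIF5 and in genes described further on. They lie on chromosome 3 for PIF5 (chr3:21830970-21831029, minus strand), LHCA4 (chr3:17495089-17495148, minus strand) and AT3G13980 (chr3:4620342-4620401, minus strand), and on chromosome 5 for CHIL (chr5:1563192-1563251, plus strand).
PIF5: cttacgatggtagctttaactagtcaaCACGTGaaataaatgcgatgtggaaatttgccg
LHCA4: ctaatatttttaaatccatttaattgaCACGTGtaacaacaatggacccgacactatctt
AT3G13980: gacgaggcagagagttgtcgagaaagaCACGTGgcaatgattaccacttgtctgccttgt
CHIL: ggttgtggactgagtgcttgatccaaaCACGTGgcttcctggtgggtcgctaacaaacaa
Counted from the annotated start, the first base of the G-box lay at position -165 in PIF5, -88 in LHCA4, -69 in AT3G13980 and -67 in CHIL. PIF5, LHCA4 and AT3G13980 fell in pif457 and CHIL rose. A match in these letters is a description of the sequence and not a measured binding site.

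Across all tested genes, 1415 (6.5%) were called higher and 543 (2.49%) lower in pif457, together 8.99%, at an adjusted p under 0.05. The median gene was higher by 0.13 on the log2 scale, and median-of-ratios scaling, which removes that shift, gave 926 higher and 1335 lower. In what follows a gene "rose" or "fell" where it was called in the same direction under both scalings, which held for 917 (4.21%) and 543 (2.49%) of the genes, together 6.7%. Which direction held more genes depended on the scaling, so 917 against 543 does not show that rises outnumbered falls. A relative change is the fitted log2 change minus that of the median gene. Among nuclear genes, 917 rose (4.24%) and 407 fell (1.88%), with a median size of 0.68 and 0.73 on the relative log2 scale. By the fitted change, which still holds the shift of 0.13, 224 of these rises and 79 of these falls were at least 2-fold. All 3 pif457 libraries lay above all 3 Col-0 libraries in 17.1% of the genes and below them in 8.34%, together 25.5%. Because RNA came from whole seedlings, fewer cells of a type and less RNA per cell cannot be told apart.

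These counts depended on single libraries. Replicates with the same number deviated together, with residual correlations of 0.55, 0.3 and 0.47, and with the replicate number as a block 1371 genes (6.29%) rose and 765 (3.51%) fell. Without replicate 2 of Col-0 only 318 rose and 230 fell, and without replicate 3 of pif457 343 rose and 245 fell. Without replicate 2 of pif457 520 rose. Replicate 3 of Col-0 stood nearer to replicates 2 and 3 of pif457 than the other Col-0 libraries did, but not to replicate 1. Its correlation with the pif457 libraries, across genes on the log2 scale, was 0.963 to 0.973, against 0.943 to 0.97 for Col-0 replicates 1 and 2. With replicate 1 of pif457 the correlation was 0.97 for replicate 1 of Col-0 and 0.963 for replicate 3. Without replicate 3 of Col-0 1122 genes rose and 505 fell.

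**Figure D1:**
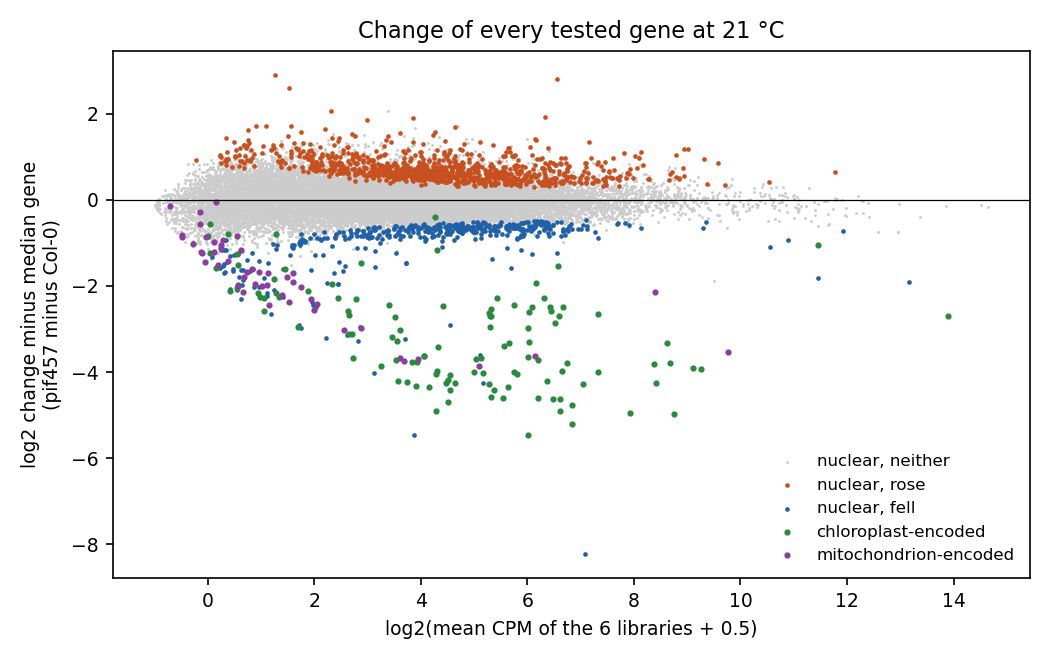
Relative log2 change (pif457 minus Col-0 at 21 °C, median gene at 0) of each tested gene against log2 of its mean CPM in the 6 libraries plus 0.5, coloured by place of encoding and by whether the gene rose or fell. Chloroplast-encoded and mitochondrion-encoded genes all lie below 0, and the lowest point is AT3G01345 at a relative change of -8.22.

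The transcripts of the disrupted genes PIF5 and PIF7 were nearly lost, while PIF4 RNA was reduced by less. PIF5 was at 73.2, 71.6 and 44.9 CPM in Col-0 and at 6.27, 5.65 and 3.74 CPM in pif457. It fell by 3.47 ± 0.18 (SE) on the log2 scale (adjusted p = 5.79e-14). PIF7 was at 11.58, 14.78 and 10.04 CPM in Col-0 and at 0.565, 1.63 and 0.757 CPM in pif457, a fall by 3.14 ± 0.23 (adjusted p = 1.91e-10). PIF4 was at 22.1, 40.4 and 20.5 CPM in Col-0 and at 14.7, 12.9 and 12.6 CPM in pif457. It fell by 0.96 ± 0.23 (adjusted p = 0.00871), with about 13.4 CPM left on average. The groups did not overlap for any of the 3 genes. The call for PIF4 was lost without replicate 2 of Col-0 or replicate 3 of pif457 (adjusted p up to 0.106), while those for PIF5 and PIF7 were kept in each fit that left out 1 library.

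The other 5 genes of the family, which encode intact PIFs or a close relative, did not pass under both scalings. PIF1 was at 23.7, 29.4 and 23.1 CPM in Col-0 and at 19.8, 19.3 and 19.2 CPM in pif457 (log2 change -0.37 ± 0.14, adjusted p = 0.108). The groups did not overlap, and after median-of-ratios scaling PIF1 passed (log2 change -0.496, adjusted p = 0.0233). PIF3 averaged 14.2 ± 1.96 CPM in Col-0 and 12.8 ± 0.509 CPM in pif457 (SD, n = 3), PIF8 averaged 45.6 ± 7.67 and 52.3 ± 7.61 CPM, and both overlapped. PIF6 had log2 change -0.13 ± 0.30, and its sign turned to 0.37 without replicate 3 of Col-0. PIL1, a PIF-related gene that shade induces, was near the floor in all 6 libraries, at 0.14 to 0.662 CPM in Col-0 and 0.0471 to 0.0958 CPM in pif457. Of the 8 family members 3 fell and none rose, beside 2.49% and 4.21% of all genes.

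**Figure D2:**
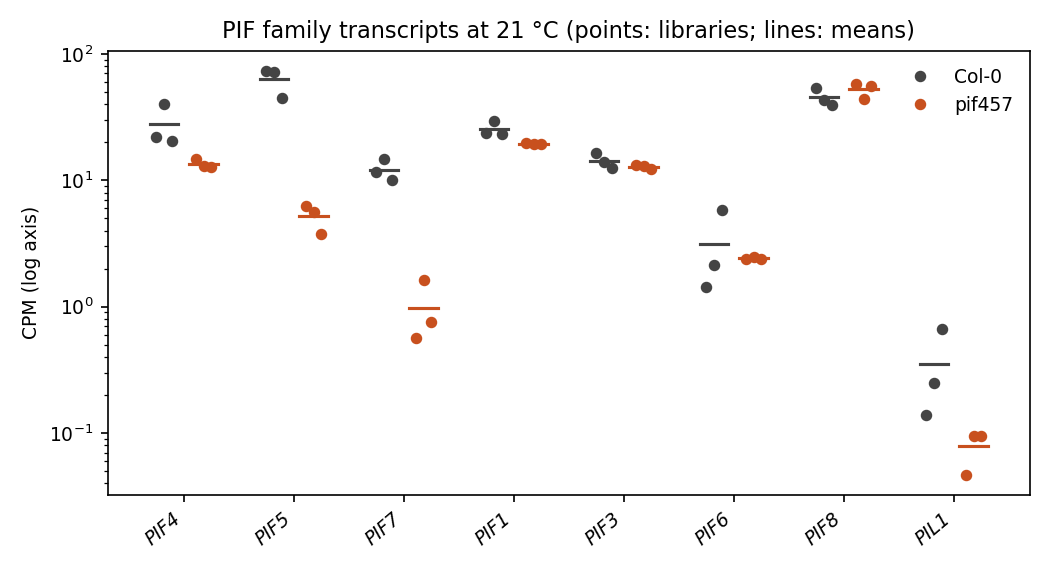
CPM (log axis) of the 8 PIF family genes in the 3 Col-0 and 3 pif457 libraries at 21 °C; points are libraries and lines are group means. PIF5 and PIF7 are separated by the widest gaps, PIF4 by a narrower one, and PIF3, PIF6 and PIF8 overlap.

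AT3G01345 and QQS fell most among nuclear genes at 5 CPM or more whose groups did not overlap. AT3G01345 (chr3:129138-130749), a protein-coding gene to which the annotation gives no name, was at 196, 306 and 304 CPM in Col-0 and at 0.141, 0.958 and 0.473 CPM in pif457. It fell by 8.09 ± 0.34 on the log2 scale (adjusted p = 1.93e-16). QQS (chr3:12349047-12349933), an orphan gene that affects the balance of starch and protein, was at 28.6, 27.4 and 28.0 CPM in Col-0 and at 0.236, 0.239 and 0.142 CPM in pif457, which is close to the worth of 3 reads. It fell by 5.34 ± 0.29 (adjusted p = 7.32e-14). The sizes of both changes depend on the pseudocount, and ran from -9.12 to -6.73 for AT3G01345 and from -7.22 to -3.77 for QQS over all alternatives. Both genes were also low in the other lines at 21 °C. AT3G01345 averaged 0.564 CPM in hyl1-2, 0.445 CPM in dcl1-24/hyl1-2 and 0.839 CPM in MIM156, and QQS averaged 0.181, 0.337 and 0.178 CPM. Outside Col-0 no library of the series had more than 2.13 CPM of AT3G01345 or 1.23 CPM of QQS, while in Col-0 at 27 °C they averaged 243 and 29.1 CPM.

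AT3G05945, a long non-coding RNA (chr3:11510090-11510510), stood apart from those genes in its levels elsewhere. It was at 15.1, 15.6 and 16.7 CPM in Col-0 and at 0.471, 0.67 and 0.662 CPM in pif457, a log2 change of -3.89 ± 0.24 (adjusted p = 2.42e-12). It averaged 14.2 ± 1.08 CPM in MIM156, 7.25 ± 1.83 CPM in hyl1-2 and 1.63 ± 0.419 CPM in dcl1-24/hyl1-2 at 21 °C. AT4G05631 was at 27.7, 65.0 and 29.1 CPM in Col-0 and at 4.62, 5.36 and 5.2 CPM in pif457, and fell by 2.77 ± 0.48. AT4G22495 and AT4G22505 overlap and had identical values in these libraries, so they are 1 measurement. They were at 9.86, 6.05 and 8.0 CPM in Col-0 and at 1.7, 1.96 and 1.94 CPM in pif457, a fall by 1.82 ± 0.24. The non-coding RNAs AT4G04223 and AT4G14548 fell by 1.79 ± 0.32 and 1.57 ± 0.29. All of these calls were kept whichever library was left out.

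The largest rise under the rule for named genes was that of CP1 (AT4G36880), a cysteine protease. It was at 30.4, 18.6 and 14.0 CPM in Col-0 and at 90.4, 179 and 231 CPM in pif457, and rose by 2.93 ± 0.38 (adjusted p = 6.98e-05). The lowest mutant library was above the highest Col-0 library. In the other lines at 21 °C CP1 averaged 13.1 to 28.9 CPM. AT1G29090 was at 38.6, 27.0 and 26.7 CPM in Col-0 and at 111, 105 and 173 CPM in pif457, a rise by 2.04 ± 0.29 (adjusted p = 0.000122). SAD6, a stearoyl-acyl carrier protein desaturase, rose by 2.19 ± 0.48 from 1.25, 0.645 and 1.78 CPM to 5.51, 5.03 and 12.6 CPM.

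Other large rises included PGAZAT, GH9B15 and MAP18. PGAZAT, a polygalacturonase of cell separation, was at 15.0, 9.22 and 6.52 CPM in Col-0 and at 30.2, 24.5 and 61.9 CPM in pif457 (log2 change 1.83 ± 0.38, adjusted p = 0.00324). GH9B15, of the glycosyl hydrolase family that holds the endoglucanases, was at 7.53, 8.73 and 7.69 CPM in Col-0 and at 14.8, 31.9 and 41.6 CPM in pif457 (log2 change 1.70 ± 0.47, adjusted p = 0.0252). MAP18, a microtubule-associated protein, was at 3.67, 3.12 and 10.3 CPM in Col-0 and at 15.7, 27.0 and 24.1 CPM in pif457 (log2 change 2.02 ± 0.57, adjusted p = 0.0305). The groups did not overlap for any of the 3 genes. The rest of the 10 largest rises were the pseudogene AT5G35935 (1.97), AT3G29034 (1.77), AT5G46960 (1.69) and AT1G13670 (1.67). Without replicate 1 or 2 of Col-0, or replicate 2 or 3 of pif457, MAP18 and GH9B15 lost their calls (adjusted p up to 0.162 and 0.149), SAD6 did so without replicate 3 of pif457 (0.0531) and AT1G13670 without replicate 2 of Col-0 (0.0626).

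**Figure D3:**
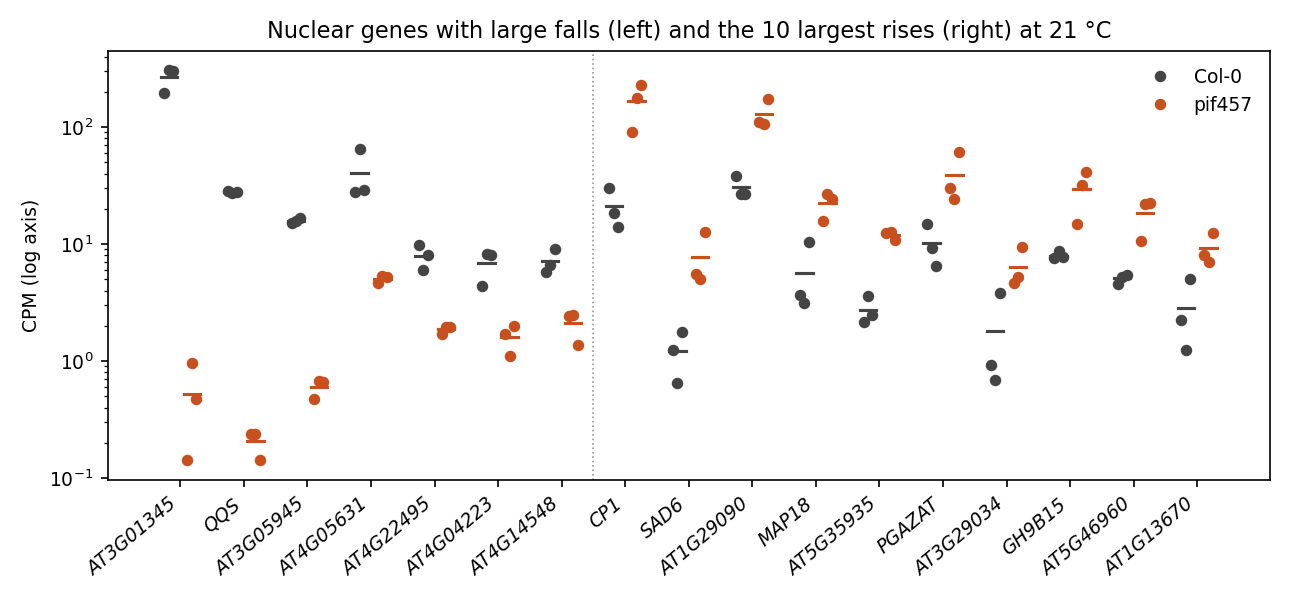
CPM (log axis) of 7 nuclear genes with large falls, left of the dotted line, and of the 10 genes with the largest rises, right of it, in each library at 21 °C; points are libraries and lines group means. The groups are separate for every gene shown, and AT3G01345 spans the widest gap, from 196 CPM in its lowest Col-0 library to 0.958 CPM in its highest pif457 library.

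RNA encoded in the chloroplast and mitochondrial genomes was several-fold less abundant in the mutant libraries. Such RNA, like ribosomal RNA, mostly lacks the long poly(A) tails by which these libraries were selected, so its share is that of RNA carried through the selection. Chloroplast-encoded genes took 4.93, 5.37 and 2.56% of reads in Col-0 and 0.97, 0.852 and 0.444% in pif457, and the groups did not overlap. The mean was 5.68-fold higher in Col-0 (exact permutation test over the 6 libraries, two-sided p = 0.1, the smallest that 3 against 3 can give). Mitochondrion-encoded genes took 0.271, 0.321 and 0.165% in Col-0 and 0.0321, 0.0362 and 0.0263% in pif457, or 8.0-fold more in Col-0 (exact permutation p = 0.1). Per gene, 104 of 115 tested chloroplast genes and 32 of 49 mitochondrial genes fell, beside 2.49% of all genes. None rose, beside 4.21%, and the median relative changes were -3.28 and -1.7. Genes of 1 genome are not independent, so these counts add no replicates.

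Among the 10 largest falls of genes at 5 CPM or more, 8 were chloroplast-encoded genes, given here by ID because the annotation used did not pair these IDs with names. ATCG00520 was at 55.9, 253 and 70.2 CPM in Col-0 and at 1.46, 2.92 and 1.84 CPM in pif457, and fell by 5.33 ± 0.67 (adjusted p = 6.7e-05). ATCG00040, ATCG00120, ATCG00130, ATCG00540, ATCG00510, ATCG00720 and ATCG00500 had log2 changes of -5.07, -4.84, -4.82, -4.78, -4.76, -4.63 and -4.57. In each of these genes replicate 2 of Col-0 was the highest of the 6 libraries. The most abundant chloroplast gene, ATCG00950, was at 35460, 26360 and 15950 CPM in Col-0 and at 5813, 5169 and 2385 CPM in pif457, a log2 change of -2.57 ± 0.44. ATCG00920 was at 5290, 3630 and 2032 CPM against 3013, 1994 and 966 CPM, and its groups overlapped (adjusted p = 0.399).

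Nuclear ribosomal RNA moved the same way. The 4 tested rRNA genes took 2.03, 2.33 and 1.22% of reads in Col-0 and 0.737, 0.626 and 0.323% in pif457 (3.31-fold, exact permutation p = 0.1). All 4 fell, beside 2.49% of all genes. AT3G41768 fell by 1.79 ± 0.41, AT2G01010 by 1.69 ± 0.45, AT3G41979 by 1.12 ± 0.18 and AT2G01020 by 0.61 ± 0.16. Leaving out replicate 2 of Col-0 or replicate 3 of pif457 ended the calls of AT3G41768, AT2G01010 and AT2G01020 (adjusted p up to 0.0731, 0.146 and 0.139), and for the last 2 so did leaving out replicate 1 of Col-0. The pericentromeric part of chromosome 2, where a copy of the mitochondrial genome is inserted, behaved likewise. Of 55 tested genes between bases 3244585 and 3527500 of that chromosome, 31 fell and none rose, beside 2.49% and 4.21% of all genes. Their median relative change was -1.43. AT2G07698 was at 50.1, 114 and 39.0 CPM in Col-0 and at 2.45, 4.6 and 2.37 CPM in pif457. Reads shared by that insertion and the mitochondrial genome may be missing from both, as only uniquely mapped reads were counted, so these values are uncertain. The share of these RNAs also differed between libraries of 1 genotype and between the other lines. Chloroplast-encoded genes averaged 1.81% of reads in dcl1-24/hyl1-2, 4.51% in MIM156 and 8.58% in hyl1-2 at 21 °C. For mitochondrion-encoded genes these means were 0.0864, 0.428 and 0.606%, and for nuclear rRNA 0.934, 1.91 and 2.74%. The means of dcl1-24/hyl1-2 thus also lay below those of Col-0 (4.28, 0.252 and 1.86%). The part of these shares in the other changes was not tested.

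**Figure D4:**
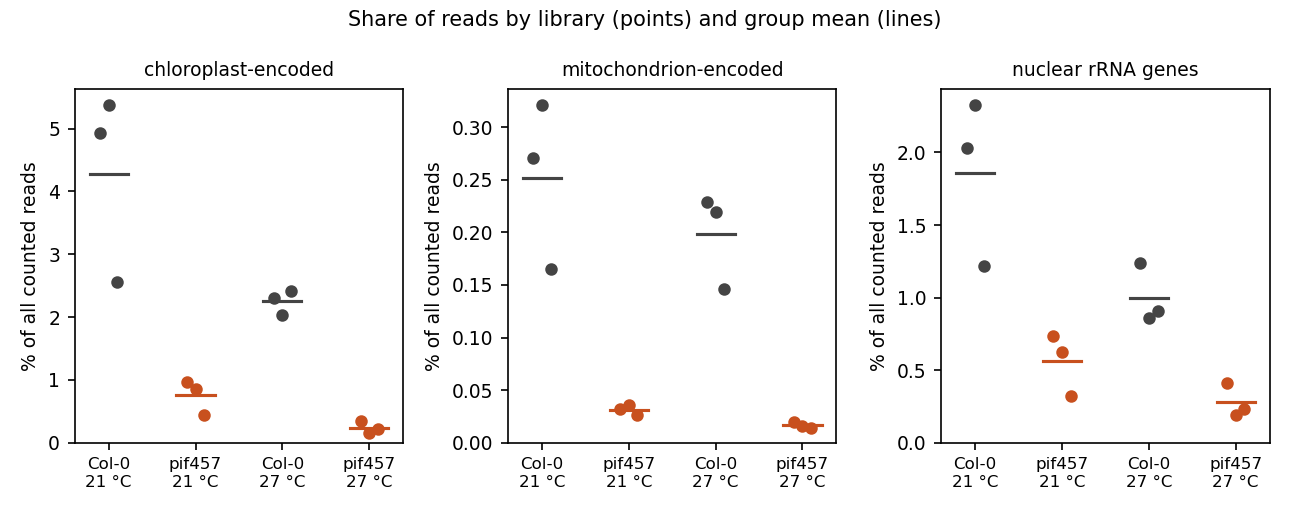
Share of counted reads from chloroplast-encoded genes, mitochondrion-encoded genes and nuclear rRNA genes in Col-0 and pif457 at 21 and 27 °C; points are libraries, lines are group means, and each axis starts at 0. At 21 °C every pif457 library lies below every Col-0 library in each panel.

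Of the light signalling genes, HY5, HYH and FHY1 rose. HY5, a bZIP factor that promotes photomorphogenesis, was at 5.12, 7.79 and 6.42 CPM in Col-0 and at 15.3, 11.5 and 12.9 CPM in pif457. It rose by 0.99 ± 0.18 (adjusted p = 0.000816), with no overlap, and kept its call without any 1 library. Its homologue HYH was at 16.0, 9.82 and 14.0 CPM in Col-0 and at 27.0, 17.0 and 26.2 CPM in pif457 (log2 change 0.79 ± 0.22, adjusted p = 0.0222). FHY1 (AT2G37678), which carries phytochrome A into the nucleus, was at 3.07, 2.58 and 4.18 CPM against 7.21, 5.46 and 7.76 CPM (log2 change 0.96 ± 0.23, adjusted p = 0.00796). HYH and FHY1 lost their calls without replicate 2 of Col-0 or replicate 3 of pif457, and HYH also without replicate 1 of pif457 (adjusted p up to 0.181 and 0.0736). Among the 19 light receptor and signalling genes, 3 rose, none fell, beside 4.21% and 2.49% of all genes, and the median relative change was -0.15.

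Chlorophyll synthesis genes went both ways. CHLI2, a subunit of magnesium chelatase, was at 58.8, 52.6 and 68.4 CPM in Col-0 and at 110, 107 and 111 CPM in pif457, and rose by 0.87 ± 0.16 (adjusted p = 0.000772). DVR, the divinyl reductase, rose by 0.70 ± 0.17 from 98.1, 82.6 and 116 CPM to 165, 158 and 155 CPM, and PORC, a protochlorophyllide oxidoreductase, rose by 0.46 ± 0.12. PORA, the oxidoreductase of the same family that acts in etiolated seedlings, was low throughout, at 2.37, 2.28 and 1.22 CPM in Col-0 and at 0.613, 0.575 and 0.662 CPM in pif457. It fell by 1.1 ± 0.25 (adjusted p = 0.00627). CHLD, another chelatase subunit, fell by 0.40 ± 0.11 and GLK1, a transcription factor for chloroplast development, by 0.54 ± 0.17. Without replicate 2 of Col-0 the calls of DVR, PORA, PORC, CHLD and GLK1 were lost (adjusted p over all such fits up to 0.0958, 0.0523, 0.104, 0.15 and 0.302). PORC was also lost without replicate 1 of pif457, and CHLD and GLK1 without replicate 1 of Col-0 or replicate 3 of pif457, CHLD further without replicate 2 and GLK1 without replicate 1 of pif457. Of 17 chlorophyll genes 3 rose and 3 fell, beside 4.21% and 2.49% of all genes, and with the replicate block 5 rose and 4 fell.

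Light-harvesting and photosystem genes went both ways, and 3 antenna genes fell. LHCB2.2 was at 2416, 2148 and 1416 CPM in Col-0 and at 1165, 1104 and 775 CPM in pif457 (fell by 0.96 ± 0.21, adjusted p = 0.00559). LHCB2.1 was at 2805, 2599 and 1819 CPM against 1531, 1452 and 1132 CPM (fell by 0.80 ± 0.18, adjusted p = 0.00684). The pair encode near-identical antenna proteins of photosystem II, and as only uniquely mapped reads were counted, reads they share may be missing from both values. LHCA4, an antenna protein of photosystem I, was at 5498, 4865 and 3603 CPM against 3372, 3398 and 2475 CPM (fell by 0.59 ± 0.15, adjusted p = 0.0145). PSAN rose by 0.55 ± 0.11. LHCB4.3 was at 47.1, 30.4 and 50.3 CPM against 95.4, 54.5 and 72.7 CPM and was called higher only with the deposited totals (log2 change 0.79 ± 0.22, adjusted p = 0.0233). Among the 41 nuclear genes for light harvesting and photosystem subunits, 3 fell and 1 rose, beside 2.49% and 4.21% of all genes. The median relative change was -0.18, and with the replicate block 5 fell and 1 rose. In 6 members all pif457 libraries lay above all Col-0 libraries and in 6 below them, beside 17.1% and 8.34% of all genes. Without replicate 3 of pif457 the calls of LHCB2.2, LHCB2.1 and LHCA4 were lost (adjusted p up to 0.0593, 0.0668 and 0.141), for LHCB2.1 and LHCA4 also without replicate 2 of Col-0, and for LHCA4 without replicate 1 of Col-0.

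Carbon metabolism and flavonol genes included further rises. CP12-2, a regulator of Calvin cycle enzymes, was at 166, 151 and 164 CPM in Col-0 and at 376, 318 and 370 CPM in pif457 (log2 change 1.14 ± 0.18, adjusted p = 0.000224). It was the 1 gene of 15 in the Rubisco and Calvin cycle list that rose. The beta-amylase BAM3 (AT4G17090), which degrades starch in leaves, was at 173, 205 and 213 CPM against 390, 345 and 388 CPM (log2 change 0.93 ± 0.16, adjusted p = 0.000321), and BAM1 rose by 0.46 ± 0.10. They were the 2 genes that rose among 25 tested of starch metabolism, where none fell. FLS1, flavonol synthase, averaged 31 ± 15.4 CPM in Col-0, with 47.8 CPM in its highest library, and was at 78.8, 50.1 and 80.9 CPM in pif457 (log2 change 1.25 ± 0.35, adjusted p = 0.0252). MYB111, an activator of flavonol genes, was at 2.56, 2.48 and 3.26 CPM against 5.94, 5.84 and 6.48 CPM (log2 change 1.02 ± 0.24, adjusted p = 0.00834). These were the 2 rises among 16 tested flavonoid and anthocyanin genes. Beside the counts of these 3 lists, 4.21% of all genes rose and 2.49% fell. CP12-2, BAM3 and BAM1 kept their calls without any 1 library, whereas MYB111 lost its call without replicate 2 of Col-0 (adjusted p = 0.0543) and FLS1 without any of replicates 1 and 2 of Col-0 and 1 and 3 of pif457 (up to 0.185).

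The auxin genes that the study names for the response to warmth were low at 21 °C, and none passed the test. IAA19 was at 2.37, 2.33 and 1.58 CPM in Col-0 and at 3.82, 2.39 and 2.89 CPM in pif457 (log2 change 0.44 ± 0.30, adjusted p = 0.375). IAA29, another auxin-induced repressor, was at 0.93, 1.79 and 1.38 CPM against 0.33, 0.383 and 0.851 CPM (log2 change -0.88 ± 0.29, adjusted p = 0.0545), and with the replicate block it passed the test. YUC8, a flavin monooxygenase that makes auxin, was at 2.74, 1.49 and 1.68 CPM against 2.5, 2.54 and 2.41 CPM (adjusted p = 0.428). YUC9 (log2 change 0.64 ± 0.30), IAA5 (0.27 ± 0.39) and IAA34 (-0.14 ± 0.28) did not pass. The same held for SAUR19, SAUR20, SAUR22, SAUR23, SAUR24, SAUR27 and SAUR28, small auxin-induced growth genes which lay at or below 2.87 CPM in each library, with adjusted p of 0.239 to 0.895. Several of these have near-identical copies, which makes their single values uncertain.

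A few other members of the auxin lists passed the test. IAA4 was at 25.1, 19.3 and 21.5 CPM in Col-0 and at 45.4, 40.5 and 44.5 CPM in pif457 (log2 change 0.98 ± 0.15, adjusted p = 0.000129), and kept its call without any 1 library. IAA26 rose by 0.65 ± 0.15 and IAA18 by 0.45 ± 0.13, so 3 of 25 tested Aux/IAA genes rose and none fell, beside 4.21% and 2.49% of all genes. With the replicate block 5 rose and 1 fell, beside 6.29% and 3.51%. SAUR32 was at 8.18, 6.59 and 12.2 CPM against 15.7, 24.4 and 25.1 CPM (log2 change 1.24 ± 0.21, adjusted p = 0.000279). With SAUR31 (0.87 ± 0.20) and SAUR55 (1.14 ± 0.32, groups overlapping) it made 3 rises among 61 tested SAUR genes, with no fall, a share near the 4.21% of all genes that rose. YUC2, an auxin synthesis gene, was at 6.04, 5.26 and 4.18 CPM against 3.63, 1.92 and 3.12 CPM (fell by 0.76 ± 0.24, adjusted p = 0.0432) and was the 1 of 11 tested auxin synthesis genes that fell. Without replicate 3 of pif457 the calls of IAA26, IAA18, SAUR31 and YUC2 were lost (adjusted p up to 0.0588, 0.161, 0.0517 and 0.203), for IAA18 and YUC2 also without replicate 1 or 2 of Col-0 or replicate 2 of pif457, and SAUR55 lost its call in the same 4 fits as these (up to 0.155). SAUR31 overlaps AT4G00883, so its reads may belong to either gene. None of 14 auxin transport genes and none of 8 tested GH3 and auxin inactivation genes passed, with median relative changes of -0.42 and 0.09, and 3 transport genes fell with the replicate block.

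Most lists for growth outside auxin held few changes, and over all genes 4.21% rose and 2.49% fell. None of 17 shade and PIF target genes passed (median relative change 0.01), nor did any of 14 tested genes of the growth bHLH module under both scalings, nor any of 17 tested gibberellin genes. With the replicate block IBH1 of the bHLH module rose and GAI of the gibberellin genes fell. Of 15 brassinosteroid genes, CPD, a synthesis enzyme, fell by 0.44 ± 0.11 from 136, 136 and 118 CPM to 95.1, 99.6 and 92.1 CPM, and the receptor BRI1 fell by 0.34 ± 0.11. Both were lost without replicate 1 or 2 of Col-0 or 3 of pif457, and BRI1 also without replicate 2 of pif457 (adjusted p up to 0.0841 and 0.179). XTH23, a xyloglucan-modifying enzyme, rose by 1.35 ± 0.37 and was the 1 of 29 tested XTH genes that rose. EXPA8, an expansin that loosens walls, fell by 1.03 ± 0.22 and was the 1 of 18 tested alpha-expansins that fell, although its groups overlapped and without replicate 3 of pif457 its adjusted p was 0.05. ACO1, an ethylene-forming oxidase, rose by 1.4 ± 0.43 and was the 1 of 13 tested ethylene genes to do so. XTH23 lost its call without replicate 1 or 2 of Col-0 or 3 of pif457 (adjusted p up to 0.139), and ACO1 without any library but replicate 3 of Col-0 (up to 0.236).

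Among targets of miRNAs other than miR156, 8 of 54 tested genes fell and none rose, beside 2.49% and 4.21% of all genes, and the median relative change was -0.24. With the replicate block 10 fell and 1, CSD1, rose. They included 4 class III homeodomain-leucine zipper genes targeted by miR166, which set organ polarity. PHV was at 22.3, 29.6 and 26.3 CPM in Col-0 and at 16.8, 14.5 and 14.9 CPM in pif457 (fell by 0.74 ± 0.13, adjusted p = 0.000734), and PHB was at 47.5, 55.7 and 53.7 CPM against 33.0, 35.2 and 35.1 CPM (fell by 0.59 ± 0.16, adjusted p = 0.0159). ATHB8 fell by 0.51 ± 0.15 and CNA by 0.46 ± 0.13. The auxin response factors ARF6 and ARF8, targets of miR167, fell by 0.53 ± 0.17 and 0.38 ± 0.11. AGO1, the miR168-targeted effector of miRNA silencing, was at 148, 160 and 151 CPM against 101, 101 and 109 CPM and fell by 0.56 ± 0.11, and SNZ, a target of miR172, fell by 0.77 ± 0.23. PHB lost its call without replicate 2 of Col-0 or 3 of pif457 (adjusted p up to 0.0926), SNZ without those or replicate 1 of Col-0 (0.229), while PHV and AGO1 kept theirs. Of the others, ATHB8, CNA, ARF6 and ARF8 lost their calls without replicate 2 of Col-0 or replicate 3 of pif457 (adjusted p over all such fits up to 0.162, 0.0867, 0.221 and 0.149). Replicate 3 of Col-0 and replicate 1 of pif457 did the same for ATHB8, CNA and ARF6, replicate 1 of Col-0 for CNA and ARF8, and replicate 2 of pif457 for ARF6 and ARF8.

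None of 10 tested SPL genes targeted by miR156 rose or fell, although SPL2 fell with the replicate block. SPL9 was at 1.07, 2.18 and 2.04 CPM in Col-0 and at 1.79, 1.92 and 2.65 CPM in pif457 (log2 change 0.23 ± 0.21, adjusted p = 0.52). SPL6 had log2 change -0.27 ± 0.26, SPL3 0.05 ± 0.28 and SPL5 0.11 ± 0.33. SPL3 and SPL5 were at or below 1.58 CPM in each library and overlap other genes, which makes them uncertain.

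Among stress lists, hypoxia genes had the highest median. The 12 tested core hypoxia genes had a median relative change of 0.69, and 3 rose, beside 4.21% of all genes. With the replicate block 7 rose, beside 6.29% of all genes. ADH1, alcohol dehydrogenase, was at 3.12, 3.32 and 6.47 CPM in Col-0 and at 14.8, 6.46 and 25.3 CPM in pif457 (log2 change 1.61 ± 0.42, adjusted p = 0.017). The haemoglobin HB1 was at 2.88, 0.893 and 5.76 CPM against 11.4, 5.51 and 11.4 CPM (log2 change 1.61 ± 0.50, adjusted p = 0.041). ADH1 and HB1 overlapped between groups, as replicate 3 of Col-0 lay just above the lowest pif457 library. Both calls were lost without replicate 1 or 2 of Col-0 or replicate 3 of pif457, and that of HB1 also without replicate 1 of pif457 (adjusted p up to 0.142 and 0.276). SAD6, described above, is the third of the list. HSFA7A, a heat shock factor, was at 6.7, 2.97 and 5.76 CPM against 10.7, 16.6 and 13.7 CPM (log2 change 1.37 ± 0.27, adjusted p = 0.00132) and was the 1 of 15 tested heat genes that rose.

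Dehydrins and other water deficit genes were divided. ERD10 was at 11.95, 14.3 and 29.4 CPM in Col-0 and at 30.7, 31.7 and 43.2 CPM in pif457 (log2 change 1.0 ± 0.30, adjusted p = 0.0364), and COR47 rose by 1.02 ± 0.24, with overlap. RD29B, induced by abscisic acid, was at 4.28, 9.82 and 10.2 CPM against 1.93, 3.64 and 1.75 CPM (fell by 1.51 ± 0.45, adjusted p = 0.0371). These were 2 rises and 1 fall among 8 tested genes, beside 4.21% and 2.49% of all genes. ERD10 was lost without any library but replicate 3 of Col-0 (adjusted p up to 0.18) and RD29B without replicate 2 or 3 of Col-0 or 1 or 3 of pif457 (up to 0.172). COR47 was lost without replicate 1 or 2 of Col-0 or 3 of pif457 (up to 0.0738). CYP79F1, of aliphatic glucosinolate synthesis, fell by 1.42 ± 0.45, with overlap, as 1 of 9, and was lost without replicate 1 or 3 of Col-0 or 2 or 3 of pif457 (up to 0.244). PAD4, of salicylic acid signalling, rose by 0.86 ± 0.20 as 1 of 5 tested, lost without replicate 2 of Col-0 or 3 of pif457 (up to 0.0846). ELF4, of the clock's evening complex, rose by 0.82 ± 0.22 as 1 of 25, lost without those or replicate 1 of Col-0 (up to 0.123). None of 14 tested jasmonate genes under both scalings and none of 15 iron genes passed, and with the replicate block AOC2 of the jasmonate genes rose and PRR7 and LNK2 of the clock genes fell.

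Markers of other cell types and stages did not separate the genotypes by test. None of 8 root hair genes passed, but their summed level varied widely, at 13.2, 26.2 and 142 CPM in Col-0 and at 48.4, 78.3 and 125 CPM in pif457, with a median relative change of 0.93. Replicates 1 and 2 of Col-0 were below every pif457 library and replicate 3 was above them. Replicate 3 of Col-0 was also the highest Col-0 library for ADH1, HB1, SAD6, ERD10, COR47 and MAP18. The part of root hair RNA in these changes was not tested. Stomatal lineage genes summed to 53.1, 48.4 and 51.9 CPM against 63.0, 57.0 and 59.6 CPM, mitotic genes to 67.1, 69.8 and 74.9 CPM against 67.1, 63.1 and 78.1 CPM, and seed storage genes to 7.02, 5.21 and 4.74 CPM against 0.895, 9.96 and 2.03 CPM. None of the 8, 9 and 9 tested genes of these lists passed, and none of the markers was at 0 in a whole group.

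At 27 °C, in 6 other libraries of the same genotypes, 921 genes (4.23%) were called higher and 2835 (13%) lower, and 920 (4.22%) rose and 1855 (8.52%) fell under both scalings, together 12.7%. Of the 917 that rose at 21 °C, 840 (91.6%) had a relative change above 0, beside 50.3% of all 21616 tested nuclear genes, and 271 (29.6%) rose again, beside 4.26%. Of the 407 that fell, 382 (93.9%) were below 0, beside 49.6%, and 253 (62.2%) fell again, beside 8.03%. Only 4 genes rose at 21 °C and fell at 27 °C, and none did the reverse. Across all these genes, which are not independent, the relative changes at both temperatures had a Pearson correlation of 0.53. PIF5 and PIF7 had relative changes of -3.0 and -2.64 at 27 °C, CP1 of 2.23, HY5 of 0.86 and IAA4 of 0.65. AT3G13980, one of the G-box genes above, was at 7.67, 16.4 and 13.1 CPM against 4.1, 6.18 and 2.65 CPM at 21 °C and had a relative change of -2.05 at 27 °C.

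The difference between both changes was tested directly. The interaction was called under both scalings for 223 genes (1.02% of those tested), 49 (0.225%) higher and 174 (0.799%) lower, and with the deposited totals for 53 (0.243%) and 553 (2.54%). Among the 223 were 20 that rose and 12 that fell at 21 °C. LHCB2.2, LHCB2.1 and LHCA4 fell at 21 °C but had relative changes of 0.46, 0.58 and 0.56 at 27 °C. Their interactions passed (adjusted p = 0.018, 0.0075 and 0.0075), although none of these genes rose at 27 °C under both scalings. MYB111 rose at 21 °C and had a relative change of -0.35 at 27 °C, where it was not called (interaction adjusted p = 0.0146). CHIL, a chalcone isomerase-like protein of flavonoid synthesis, was at 34.3, 18.8 and 44.0 CPM in Col-0 and at 57.1, 44.5 and 55.3 CPM in pif457 at 21 °C, a rise by 0.76 ± 0.22, and had a relative change of -0.52 at 27 °C (adjusted p = 0.0111). CHIL did not fall at 27 °C under both scalings. It lost its call at 21 °C without replicate 2 of Col-0 or replicate 1 or 3 of pif457 (adjusted p up to 0.295). LTP2, a lipid transfer protein, had log2 changes of -0.51 ± 0.15 at 21 °C and -2.73 ± 0.15 at 27 °C, and lost its call at 21 °C without replicate 1 or 2 of Col-0 or of pif457 (up to 0.139). IAA19, IAA29, YUC8 and SAUR19 did not pass at 21 °C and had log2 changes of -3.0, -3.72, -1.37 and -2.49 at 27 °C. The difference passed for each (interaction adjusted p = 1.98e-05, 0.000171, 0.00357 and 0.000671). The study named the warmth genes from these same libraries, for induction at 27 °C in Col-0 that depended on PIFs. A negative difference was therefore built into that choice and is not independent support. The other auxin genes named for warmth did not pass the interaction under both scalings.

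**Figure D5:**
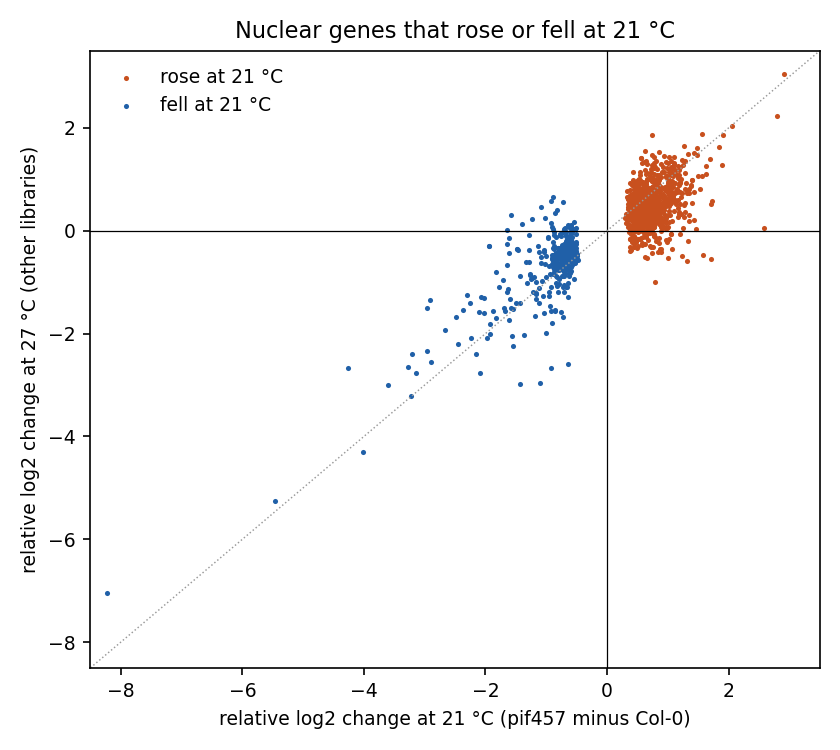
Relative log2 change (pif457 minus Col-0) at 27 °C, from 6 other libraries, against that at 21 °C for the nuclear genes that rose (917) or fell (407) at 21 °C; the dotted line marks equal change. Of the genes that rose, 91.6% lie above 0 on the vertical axis, and of those that fell 93.9% lie below it.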

How the data were processed

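Poly(A) RNA of whole seedlings was sequenced in paired-end mode from 3 biological replicates per group. The authors mapped reads with STAR 2.7.7a and counted unique reads per Araport11 gene with featureCounts 2.0.1, and the sources used here do not give a strand setting. The deposited table is named as FPKM, but its values are CPM, and whole reads were recovered for 100% of values at a tolerance of 0.001. The unit differs from the one the table's name gives, and the test chosen for normalized values was kept.

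Genes were tested with limma 3.58.1 (trend and robust) on log2(CPM + 0.5), with 1 mean per group over all 30 libraries. The 2-sided p-values were adjusted by Benjamini and Hochberg over 21780 genes and called under 0.05. Errors of changes are standard errors of that fit, and fold changes on this scale understate those of low genes. "Rose" and "fell" also require a call after median-of-ratios scaling. The 6 libraries held 19.6 to 21.5 M reads, and counting error covers only sampling of reads. Same-numbered replicates of the 2 genotypes at 21 °C had residual correlations above 0.1 in all 3 pairs (0.55, 0.3 and 0.47), so the numbers were taken to pair the libraries. At 27 °C the same-numbered pairs had lower correlations, 0.09, 0.12 and 0.21. Unless the block is named, all errors, p-values and calls given are from the fit without a block and so ignore the pairing. The fit with the replicate number as a block is an alternative, which sets 1 effect per number over all 30 libraries. The pairing comes from these correlations, not from the labels.

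As alternatives the pseudocount was set to 0.1 or 2, the filter was dropped or raised to 5 CPM, other scalings were used, the fit was limited to 6 libraries, and the limma options were removed. Recovered reads were also tested with DESeq2 1.42.0 and edgeR 4.0.16, a 2-fold minimum was set, and libraries were left out. The p-values given for fits without 1 library use the deposited totals. Whether a named gene kept or lost its call in such a fit was also judged with the deposited totals alone. That is a looser rule than the one for "rose" and "fell". A block within the 6 libraries was added after seeing the data. The procedure was also run on simulated counts with independent libraries and no shift of the median gene. That run does not bear on the replicate effects, the shift or the organelle shares seen here. The named genes were the 8 PIF genes, up to 4 called members without overlap per list, the 10 largest rises and falls at 5 CPM or more without overlap, and auxin and SPL genes the study names. The nuclear falls outside organelles, the rRNA genes, the chromosome 2 region, the genes named as called in the interaction, the other list members named and AT3G13980 were chosen after their values were seen. The members and the 34 lists were chosen with earlier results of these data known. Of the tested genes, 34.6% overlap another gene, and 224 organelle IDs were not matched to names. Columns of fold changes and p-values were not used.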

Additional observations from a re-analysis of the deposited data

Results flagged for a closer look

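The change in pif457 differed between 27 and 21 °C, by the interaction test under both scalings (limma, Benjamini-Hochberg adjusted p under 0.05), for 18 of the named genes. In the values that follow, the difference is the log2 change at 27 °C minus that at 21 °C. It was positive for the antenna genes LHCB2.2 (1.29), LHCB2.1 (1.25) and LHCA4 (1.02), and for AT4G22495 and AT4G22505, which share their reads (1.395 for each).

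It was negative for the warmth-associated auxin genes SAUR19 (-2.57), IAA19 (-3.44), IAA29 (-2.84) and YUC8 (-1.68), which did not pass at 21 °C. The study named these genes from the same libraries for PIF-dependent induction at 27 °C, which favours a negative difference in advance. It was also negative for MYB111 (-1.49) and CHIL (-1.404) of the flavonoid pathway, for LTP2 (-2.22), and for OEP16-1 (-1.53), an outer envelope protein of plastids, and ANNAT4 (-1.45), an annexin. The remaining genes were AT4G27560 (-2.04), AT3G48970 (-2.02), AT5G26260 (-1.80) and AT2G21130 (-1.50). At 27 °C the median gene was 0.13 lower in pif457 and at 21 °C 0.13 higher on the log2 scale.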

How the results depend on the processing

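The number of genes called moved with most alternatives. With the deposited totals 1415 genes were called higher and 543 lower at 21 °C. Median-of-ratios scaling gave 926 and 1335, nuclear totals without the top 50 genes 812 and 1266, edgeR 931 and 1183, and DESeq2 1068 and 1572. In each of these, unlike with the deposited totals, more genes were lower than higher. The fit of only the 6 libraries gave 295 and 191, and a minimum of 2-fold 231 and 215. The replicate block gave 2204 and 766, the block within the 6 libraries 4138 and 1260, and the fit without 3 doubted libraries, among them replicate 3 of Col-0 at 21 °C, 3297 and 671. Leaving out 1 library of the 6 gave 413 to 2538 higher and 232 to 505 lower.

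Genes that rose under both scalings numbered 917 and ran from 318 to 1122 without 1 library, and those that fell, 543, from 230 to 505. Only the 6 libraries gave 196 and 176, the block within them 2664 and 1249, the minimum of 2-fold 224 and 215, and the fit without the 3 doubted libraries 1576 that rose and 671 that fell.

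The interaction was called higher for 53 genes and lower for 553. These became 124 and 174 with median-of-ratios scaling, 89 and 228 with nuclear totals, 118 and 138 with edgeR, 254 and 265 with DESeq2, 98 and 1017 with the replicate block, 105 and 1714 without the 3 doubted libraries, 23 and 339 at 2-fold, and 17 to 81 and 223 to 1213 without 1 library. The 6 libraries alone hold no interaction. The cause of these shifts was not tested.

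Signs turned only for genes that did not pass. SPL3 had a log2 change of -0.044 with median-of-ratios scaling, -0.043 with nuclear totals, -0.108 with edgeR and -0.135 with DESeq2. Without the 3 doubted libraries SPL3 was at -0.342, SAUR19 at -0.002 and PIF6 at 0.369. Without 1 library PIF6 ran from -0.487 to 0.369, SAUR19 from -0.15 to 0.259, SAUR20 from -0.061 to 0.395, SAUR24 from -0.556 to 0.305, SPL3 from -0.342 to 0.296, SPL5 from -0.076 to 0.378 and SPL9 from -0.009 to 0.377. Of 92 named genes that rose or fell, 43 kept their call in each fit without 1 library and 29 in each alternative. These calls were judged on 1 scaling, the deposited totals unless the alternative set another, and not on both scalings. With the replicate block IAA29 fell, and IBH1, FLU, CSD1 and AOC2, called only with the deposited totals, rose under both scalings. EXO, also called only with the deposited totals, was then not called. None of the other genes given with values changed its call, while SPL2, GAI, PRR7 and LNK2, mentioned above without values, fell. Pseudocounts and filters moved no count by over 1.5 times.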
